A study of Mus musculus with 15 samples.

Results

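Hearts of 4-week-old mice bred to lack MAT1 in heart muscle cells were compared with hearts of control littermates on 8 of the 15 arrays of the series. The 8 were chosen by their titles, 5 labelled MAT1 CKO at 4 weeks and 3 labelled MAT1 control at 4 weeks, and the other 7 arrays came from 2-week-old mice of the same genotypes. Knockout mice carried the αMHC-Cre transgene (αMHC-Cre+/0) and floxed Mnat1 on both chromosomes (MAT1F/F), while controls carried the same transgene and 1 wild-type allele beside 1 floxed allele (MAT1F/+). All mice therefore made Cre recombinase from the promoter of alpha-myosin heavy chain, which is active in heart muscle cells, and the controls were heterozygous rather than wild type. RNA came from heart tissue, which also holds fibroblasts, vessel cells and immune cells, in which this promoter is not active. The labels do not say whether each array used its own mouse, so the p-values measure the spread between these arrays, which may be technical.

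MAT1, encoded by Mnat1, assembles Cdk7 and cyclin H into the kinase of TFIIH, a general transcription factor, which phosphorylates RNA polymerase II. A heart under load or injury is known to change in a stereotyped way. Fetal and stress genes such as those of the natriuretic peptides come on, genes for ion channels and calcium stores can decline, and the cytoskeleton, protein turnover and cell contacts are rebuilt. The genes described here lie outside the extracellular matrix and the supply of fuel and ATP, the parts of this response looked at most often.

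Every value below is the deposited array intensity, a brightness on a linear scale, and lists of values run from control replicate 1 to 3 and from knockout replicate 1 to 5. Differences are knockout minus control in log2(intensity + 16), with the standard error of the limma fit. A gene counts as called, and is said to have risen or fallen, at a Benjamini-Hochberg adjusted p under 0.05 over all 4950 tested genes. The dimmest 40% of the 8251 genes with a probe set were not tested. Adjusted p-values in the text are from limma.

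The targeted gene did not separate the groups. The brighter of its 2 probe sets, Mnat1, read 244, 106 and 86.0 in controls and 300.3, 314, 148, 141 and 149 in knockouts, a difference of 0.53 ± 0.47, and both probe sets fell under the filter on dim genes, so were not tested. The position of these probes relative to the deleted segment is not stated, so they do not check the labels, and knockout means hearts so labelled. Its kinase partner Cdk7 also fell under it and differed by 0.26 ± 0.21. As a check of the tissue, all 11 heart muscle markers on the array were bright enough to test.

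Correlated over all probe sets, the arrays formed 2 sets that the labels do not mention. Control replicate 1 and knockout replicates 1 and 2 were in set 1, and the other 5 arrays at 4 weeks were in set 2. Array medians were 199.6 to 216.8 in set 1 and 173.7 to 190.9 in set 2. By Xist against Uty, control replicate 1 and knockout replicates 1 to 4 came from females and the other 3 arrays at 4 weeks from males. Counts are therefore set beside those of a fit with the array set as a block.

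Of the 4950 tested genes 554 were called, 326 higher (6.59%) and 228 lower (4.61%) in knockout hearts. With the array set as a block, 1150 were called higher (23.2%) and 606 lower (12.2%), including all 554. Within set 1 the difference of 553 of these 554 genes had the same sign, and within set 2 that of all 554. Both sets are parts of the arrays on which the genes were called. The agreement of sign was therefore largely given by the choice of genes and is no independent check. Groups did not overlap for 859 genes (17.4%), among them 525 of the called genes. Leaving out control replicate 2 left 307 calls, and leaving out control replicate 3 left 353. Where calls lost without 1 array are listed below, the array named gave the highest adjusted p, and leaving out others could end the call too. The calls of Pdlim1 and Gfm1, among others, were lost whichever of the 8 arrays was left out. Those of Tk1, Itgb1, Cd74, Dnaja3 and Bdnf, among others, were lost on leaving out any 1 of 7. After quantile normalization 240 genes were called higher and 309 lower, and after median scaling of the arrays 172 and 210, so which direction had more calls changed with the scaling. The median difference of all tested genes was 0.08, and -0.00 after quantile normalization. In the gene lists that follow, the numbers called with that block stand in brackets after the list, and are to be read against its 23.2% and 12.2%. Numbers called without it are to be read against 6.59% and 4.61%, also where no share is given. Outside the matrix and fuel-use lists 468 genes were called, 287 higher and 181 lower.

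The rise that led these 468 genes was that of Cdkn1a, the p21 inhibitor of cyclin-dependent kinases. Cdkn1a read 403, 130.3 and 296 in controls and 1729, 1681, 2850.1, 2651 and 2089 in knockouts, 8.10-fold higher on average. The difference was 3.02 ± 0.30 (adjusted p = 2.63e-05), and it was 2.04 within array set 1 and 3.56 within set 2. Every knockout array was at least 4 times as bright as every control array. Next came Myl1, a myosin light chain of fast skeletal muscle, which read 355, 1456 and 933 in controls and 5823, 5647, 6315, 5589 and 5511 in knockouts (difference 2.85 ± 0.56, adjusted p = 0.00421). The 3 control arrays differed widely for Myl1, whereas the 5 knockout arrays lay close together.

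Enzymes and regulators outside the contractile apparatus followed. Uck2, which phosphorylates uridine and cytidine for nucleotide salvage, read 251, 299 and 317 in controls and 843, 911, 1886, 1507 and 2711 in knockouts (2.25 ± 0.34, adjusted p = 0.000610). Trim47, a ubiquitin ligase of the tripartite motif family, read 288, 301 and 367 in controls and 1116, 1078, 1738, 1677 and 1811 in knockouts (2.14 ± 0.28, adjusted p = 0.000205). For both genes the set 1 knockout arrays, replicates 1 and 2, were the lowest of the knockout group. Rab31, a small GTPase of membrane traffic, read 213, 113 and 147 in controls and 535, 407, 768, 634 and 688 in knockouts (1.85 ± 0.26, adjusted p = 0.000334). Kdelr3, which returns proteins from the Golgi to the endoplasmic reticulum, read 64.5, 96.5 and 123 in controls and 248, 236, 523, 483 and 409 in knockouts (1.80 ± 0.46, adjusted p = 0.0203).

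Some rises were smaller but tighter between arrays. Gpx3, the secreted glutathione peroxidase, read 2060.1, 1821 and 2094 in controls and 5465, 5758, 5677, 7378 and 5655 in knockouts (1.57 ± 0.13, adjusted p = 6.71e-06). Mfge8, a secreted protein that binds phosphatidylserine on dying cells, read 1487, 1511 and 1519 in controls and 2900.3, 3271, 2839.8, 2667 and 2978 in knockouts (0.95 ± 0.09, adjusted p = 1.43e-05). In both genes the control arrays lay close together and well below the lowest knockout array. Serpinb6a, an intracellular protease inhibitor, read 253, 212 and 282 in controls and 658, 690.0, 727, 828 and 741 in knockouts (1.49 ± 0.14, adjusted p = 1.89e-05). Cav3, the caveolin of muscle membranes, read 1346, 1165 and 1327 in controls and 2434, 2345, 2346, 2314 and 2386 in knockouts (0.88 ± 0.09, adjusted p = 2.56e-05). For Cav3 the differences within set 1 and set 2 were 0.82 and 0.91. The other rises of over 1.5 that the naming rule took were those of Adam19, a membrane metalloprotease (1.74 ± 0.31), Dap (1.74 ± 0.53), the tetraspanin gene Tspan9 (1.61 ± 0.21), the mitochondrial thioesterase gene Acot9 (1.58 ± 0.39) and Itih5 (1.58 ± 0.35), besides genes described with their groups below. Calls that did not hold on leaving out 1 array, with the highest adjusted p this gave, were those of Kdelr3 (0.0735), Dap (0.142) and Acot9 (0.0688) without control replicate 1.

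Tcea3 led the falls. It encodes the muscle-enriched member of the TFIIS family, which restarts RNA polymerase II after a pause. Tcea3 read 246, 756 and 882 in controls and 53.3, 65.8, 100.5, 68.6 and 72.02 in knockouts, a difference of -2.71 ± 0.35 (adjusted p = 0.000205). Control replicate 1, the array of set 1, was the lowest control and still well above every knockout array, and the difference was -1.80 within set 1 and -3.13 within set 2. Its close relative Tcea1, which most tissues express, differed by 0.36 ± 0.13 and was not called (adjusted p = 0.107), but the fit with the block called it higher (adjusted p = 0.00207).

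Gsta4, the glutathione transferase that clears lipid aldehydes, read 248, 576 and 923 in controls and 45.1, 64.7, 83.5, 73.7 and 89.4 in knockouts (-2.62 ± 0.39, adjusted p = 0.000612). Mid1ip1, which activates acetyl-CoA carboxylase in fatty acid synthesis, read 1082, 1504 and 1751 in controls and 292, 279, 225, 188 and 284 in knockouts (-2.43 ± 0.23, adjusted p = 1.72e-05). Mlf1, named for a fusion partner in leukaemia and abundant in muscle, read 805, 1065 and 1441 in controls and 315, 272, 177, 159 and 271 in knockouts (-2.14 ± 0.30, adjusted p = 0.000353). No knockout array of these 3 genes reached the lowest control array. Plbd1, a lysosomal phospholipase-like protein, read 434, 634 and 779 in controls and 156, 153, 106, 141 and 144 in knockouts (-1.99 ± 0.17, adjusted p = 9.94e-06). Fkbp4, an immunophilin that assists Hsp90 and steroid receptors, read 2138, 2310.2 and 2509 in controls and 746, 636, 567, 462 and 587 in knockouts (-1.94 ± 0.14, adjusted p = 3.03e-06). Among the leading falls Fkbp4 was one of the least variable, with differences of -1.61 and -2.14 within the 2 sets.

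Further large falls were those of Sema5b, a transmembrane semaphorin (-2.05 ± 0.42), Car14, a membrane carbonic anhydrase (-2.01 ± 0.30), Tnfaip8 (-1.78 ± 0.23), Hsdl2 (-1.51 ± 0.19) and Gstk1, the kappa class glutathione transferase of mitochondria and peroxisomes (-1.46 ± 0.33, adjusted p = 0.0103). Sema5b read 388, 498 and 453 in controls and 104, 168, 113, 129 and 24.6 in knockouts, with knockout replicate 5 far below the other knockout arrays. Another leading fall carries the symbol of a microRNA, and because nothing ties that probe set to the mature microRNA its value is left out. Leaving out 1 array ended the calls, with the highest adjusted p given, of Gstk1 (0.0570) without control replicate 3.

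**Figure D1:**
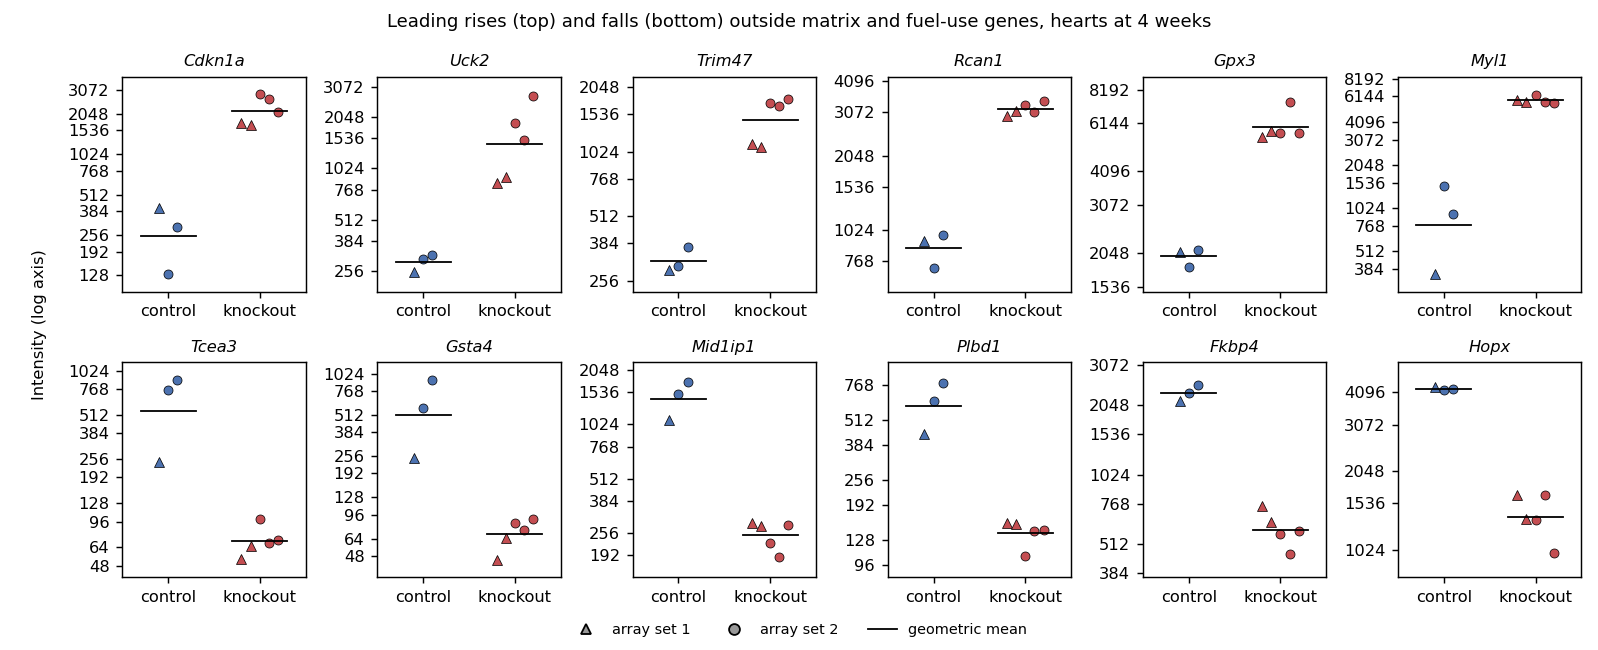
Intensity on a log axis of 6 leading rises (top row) and 6 leading falls (bottom row) in each control (blue) and knockout (red) array at 4 weeks, with triangles for array set 1, circles for array set 2 and a line at the geometric mean of each group. In every panel all 5 knockout arrays lie on one side of all 3 control arrays, which the choice of genes required, and the Tcea3 and Gsta4 controls show the widest spread among the falls.

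The promoters of the called genes were read for short sequence motifs, since many genes moved together. RefSeq windows of the GRCm38.p6 build, from 250 bases before to 50 bases after a gene's start, were matched by symbol for 3961 of the 4950 tested genes, among them 263 that rose and 192 that fell. Each of 8 motifs was searched on both strands, and none of the 8 contains another. AAGGTCA, the extended half-site bound by orphan nuclear receptors, lay in 11 of the 192 windows of genes that fell (5.73%), in 2 of the 263 of genes that rose (0.76%), in 3.46% of all tested genes' windows and in 4.66% of the 27025 in the table. Where any listed window of a gene was allowed, the counts were 14 of 192 (7.29%), 4 of 263 (1.52%) and 171 of 3961 (4.32%). This motif was picked out after the shares of all 8 were seen, the shares have no test, and a match is not a bound site.

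The other 7 motifs are given in the order of genes that rose, genes that fell, all tested genes and the whole table. The GC box GGGCGG lay in 71.1%, 58.9%, 63.5% and 35.9% of windows, and the CCAAT box (CCAAT) in 35.4%, 45.3%, 38.1% and 37.9%. The E-box CACGTG lay in 10.3%, 6.25%, 10.5% and 7.24%, and the AP-1 site TGACTCA in 3.42%, 1.04%, 3.81% and 5.17%. The TATA box TATAAA lay in 9.51%, 8.33%, 9.01% and 14.2%, the ETS core CCGGAA in 24.7%, 24.5%, 27.0% and 15.2%, and the TEAD core CATTCC in 15.2%, 10.4%, 12.4% and 14.6%. Windows of genes that rose thus held the GC box more often than windows of genes that fell, and the CCAAT box less often, by shares that have no test. Median GC content was 62.0% for genes that rose, 60.7% for genes that fell and 60.7% for all tested genes.

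Among genes named by the rule, Mlf1 and Gstk1 were the falls and Cav3 the rise with AAGGTCA before the start. Their 250 bases before the start are shown on the gene's own strand with the match, or its reverse complement TGACCTT, in capitals. The Mlf1 window is chr3:67373847-67374096 (plus strand), that of Gstk1 is chr6:42245685-42245934 (plus strand) and that of Cav3 is chr6:112459255-112459504 (plus strand). The match starts 45 bases before the start of Mlf1, 141 before that of Gstk1 and 166 before that of Cav3.
Mlf1: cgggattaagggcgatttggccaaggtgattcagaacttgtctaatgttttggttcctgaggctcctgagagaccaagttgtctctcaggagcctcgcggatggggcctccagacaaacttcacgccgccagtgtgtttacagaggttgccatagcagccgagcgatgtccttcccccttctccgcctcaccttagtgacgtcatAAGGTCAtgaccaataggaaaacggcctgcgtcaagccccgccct
Gstk1: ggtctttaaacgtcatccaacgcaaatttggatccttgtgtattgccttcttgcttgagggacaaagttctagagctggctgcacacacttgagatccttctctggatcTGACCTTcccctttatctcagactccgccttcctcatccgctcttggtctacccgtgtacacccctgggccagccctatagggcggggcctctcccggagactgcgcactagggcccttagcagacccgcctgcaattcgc
Cav3: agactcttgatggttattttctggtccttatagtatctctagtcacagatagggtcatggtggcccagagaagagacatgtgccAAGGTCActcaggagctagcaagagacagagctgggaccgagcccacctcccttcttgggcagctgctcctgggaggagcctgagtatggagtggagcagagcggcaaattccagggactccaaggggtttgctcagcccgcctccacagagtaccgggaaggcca

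Some genes of growth arrest and the response to DNA damage rose. Of 30 tested p53 targets and cell death genes (block: 10 higher, 3 lower) 5 rose (16.7%, against 6.59% of all tested genes) and none fell. Besides Cdkn1a these were Phlda3, a p53 target that blocks Akt at the membrane, the RNA-binding p53 target Zmat3, the polo-like kinase gene Plk2 and Mdm2, the ubiquitin ligase that degrades p53. Phlda3 read 319.6, 231 and 225 in controls and 679, 696, 763, 611 and 724 in knockouts (1.39 ± 0.15, adjusted p = 5.15e-05). Zmat3 read 189, 139 and 189 in controls and 409, 403, 488, 417 and 469 in knockouts (1.27 ± 0.15, adjusted p = 0.000119). Their knockout arrays all lay at or above 403, and their control arrays all below 320. Plk2 (0.61 ± 0.14, adjusted p = 0.0129) and Mdm2 (0.58 ± 0.18, adjusted p = 0.0477) changed less. Of 18 DNA repair genes (block: 1 higher, 2 lower) 1 was called: Ddb1, which recognises damaged DNA and serves as an adaptor of ubiquitin ligases, read 1169, 985 and 1125 in controls and 2473, 2309.9, 2232, 2179.9 and 2518 in knockouts (1.09 ± 0.11, adjusted p = 3.31e-05). Of 26 cell cycle and replication genes (block: 7 higher, 0 lower) 1 rose, Tk1 (0.53 ± 0.16, adjusted p = 0.0428), and its second probe set differed by -0.55 ± 0.24. The calls lost without 1 array, each with its highest adjusted p, were those of Plk2 (0.0883) and Mdm2 (0.221) without control replicate 2, and Tk1 (0.181) without control replicate 3.

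Of 34 tested subunits of RNA polymerase II and general factors (block: 10 higher, 1 lower) 4 rose (11.8%, against 6.59% of all tested genes) and 1 fell. Gtf2h1, a core subunit of TFIIH, read 331, 302 and 425 in controls and 636, 554, 562, 607 and 567 in knockouts (0.72 ± 0.14, adjusted p = 0.00460), and Polr2l, a small polymerase subunit, read 2019, 1915 and 2119 in controls and 3581, 3612, 3134, 2655 and 2667 in knockouts (0.62 ± 0.11, adjusted p = 0.00246). Gtf2a1 (0.68 ± 0.18) and the mediator kinase gene Cdk8 (0.54 ± 0.16) were the other rises. Of 24 cardiac and muscle transcription factor genes (block: 0 higher, 6 lower) 3 fell and none rose. Hopx, a homeodomain protein that restrains serum response factor, read 4283, 4158 and 4203 in controls and 1649, 1335, 1323, 1653 and 996 in knockouts (-1.61 ± 0.13, adjusted p = 6.71e-06), with control arrays within 4% of each other. Irx3, a factor of the conduction system, read 335, 291 and 431 in controls and 136, 123, 118, 118 and 94.9 in knockouts (-1.45 ± 0.18, adjusted p = 0.000132). Mlf1, counted here by its place on the list only, was the third. On leaving out 1 array, limma lost the calls (highest adjusted p in brackets) of Gtf2a1 (0.135) and Cdk8 (0.203) without control replicate 2.

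Stress-induced factors rose in part. Of 33 immediate-early and stress transcription factor genes (block: 10 higher, 1 lower) 4 rose (12.1%) and none fell. Atf3, induced by many stresses, read 82.9, 176 and 177 in controls and 394, 335, 578, 717 and 686 in knockouts (1.80 ± 0.28, adjusted p = 0.000786). Another Atf3 probe set of similar brightness differed by only 0.08 ± 0.33, with overlapping groups, and a dimmer one by 0.68 ± 0.42. The others were Ier3 (0.83 ± 0.16), Mafk, a small partner of stress-response factors (0.78 ± 0.13), and Id2, an inhibitor of basic helix-loop-helix factors (1.12 ± 0.34). Of 19 nuclear receptors and coregulators (block: 1 higher, 4 lower) Nr4a1 rose (0.67 ± 0.18, adjusted p = 0.0274) and the clock repressor gene Nr1d2 fell (-1.25 ± 0.26, adjusted p = 0.00624). Nampt, a clock-controlled enzyme of NAD synthesis, read 347, 576 and 836 in controls and 191, 183, 170.0, 353 and 221 in knockouts (-1.29 ± 0.32, adjusted p = 0.0173). For Nampt, knockout replicate 4 was brighter than control replicate 1, so the groups overlapped, as they did for Nr1d2. These were the 2 falls among 12 tested clock genes (block: 1 higher, 3 lower), none of which rose. Of 30 chromatin genes (block: 7 higher, 2 lower) Hmgn1 (0.50 ± 0.12) and Hdac6 (0.57 ± 0.16) rose. Not held without 1 array, by the highest adjusted p, were the calls of Id2 (0.204), Hmgn1 (0.0931) and Hdac6 (0.146) without control replicate 2, Nr4a1 (0.118) without control replicate 1, and Nampt (0.108) without control replicate 3.

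In the fit without the block, contractile and Z-disc genes were the list with the largest share of rises among the 42 lists plotted below that are neither matrix, fuel-use nor cell type lists. With the block other lists had larger shares, among them lysosome and autophagy (25 of 41) and small GTPases and actin regulators (31 of 58). Of 44 tested genes of the sarcomere, Z-disc and desmin cytoskeleton (block: 18 higher, 8 lower) 13 rose (29.5%) and 6 fell (13.6%), with a median of 0.18. Of the rises 5 encode LIM domain proteins (Pdlim1, Pdlim3, Pdlim7, Csrp1 and Fhl1) and 5 actin-binding proteins (Actn1, Actn2, Actn4, Tpm4 and Xirp1). Of the falls 4 encode troponins or myosin heavy chain (Tnni3, Tnnt1, Tnnt2 and Myh6). Pdlim7, a PDZ and LIM protein of the Z-disc, read 115, 154 and 189 in controls and 314, 247, 1447, 1180.1 and 1629 in knockouts (2.19 ± 0.57, adjusted p = 0.0219). Its difference was 1.17 within set 1 and 2.93 within set 2, and knockout replicates 1 and 2 stayed far below the other knockout arrays. Pdlim3 showed the same split at 76.0, 129.9 and 168 in controls and 217, 220.1, 475, 674 and 847 in knockouts (1.70 ± 0.44, adjusted p = 0.0222).

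Csrp1, a LIM-only protein of actin bundles, read 184, 135 and 159 in controls and 365, 338, 558, 792 and 917 in knockouts (1.70 ± 0.33, adjusted p = 0.00352). The actin cross-linker Actn4 rose by 1.56 ± 0.23, Tpm4 by 0.91 ± 0.20, Actn1 by 0.78 ± 0.21 the muscle form Actn2 by 0.49 ± 0.13, Pdlim1 by 0.78 ± 0.24 and Xirp1 by 1.04 ± 0.25. Acta1, the skeletal actin of the fetal heart, read 4292, 5687 and 6187 in controls and 8092, 8593, 7631, 8378 and 9176 in knockouts (0.65 ± 0.11, adjusted p = 0.00157). Fhl1, a LIM protein of the sarcomere that is raised in hypertrophy, read 978, 1650.3 and 1590.4 in controls and 2344, 2408, 5131, 4823 and 5214 in knockouts (1.44 ± 0.35, adjusted p = 0.0158). Its relative Fhl2, enriched in heart muscle, went the other way and read 5040.2, 4844 and 5252 in controls and 2912, 2914, 2816, 3001 and 2923 in knockouts (-0.79 ± 0.07, adjusted p = 1.43e-05). The 5 knockout arrays of Fhl2 lay within 7% of each other.

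Among the falls, Tnni3, the inhibitory troponin of adult heart, read 9812, 10280.4 and 10472 in controls and 5965, 6188, 6873, 5595 and 5682 in knockouts (-0.75 ± 0.06, adjusted p = 6.71e-06). Myom2, which links thick filaments in the M-band, read 2215, 2299.9 and 2682 in controls and 773, 699, 910.4, 763 and 414 in knockouts (-1.77 ± 0.23, adjusted p = 0.000219). Smaller falls were those of Myh6, the fast cardiac myosin heavy chain (-0.39 ± 0.07), Tnnt1 (-1.25 ± 0.34) and Tnnt2 (-0.30 ± 0.06). Myh7, the slow myosin heavy chain, differed by -0.11 ± 0.07 and was not called (adjusted p = 0.454), while its second, dimmer probe set differed by 1.12 ± 0.22 (adjusted p = 0.00706 over all probe sets). Both are probe sets of a kind that can read several related genes. The natriuretic peptide genes rose: Nppa read 1385, 1525 and 1717 in controls and 5419, 5189.6, 6441, 7116 and 7138 in knockouts (2.00 ± 0.33, adjusted p = 0.00126) and Nppb 2922, 2936 and 3288 in controls and 4237, 4449, 6614, 5992 and 5229 in knockouts (0.78 ± 0.19, adjusted p = 0.0155). Among these genes the calls lost on leaving out 1 array (highest adjusted p in brackets) were those of Pdlim7 (0.0782) and Nppb (0.0718) without control replicate 2, Pdlim3 (0.0887), Actn1 (0.0814), Actn2 (0.132), Pdlim1 (0.168), Xirp1 (0.0533) and Fhl1 (0.0683) without control replicate 1, and Tnnt1 (0.130) without control replicate 3. The call of Pdlim1 was lost on leaving out any 1 of the 8 arrays, and those of Pdlim7, Actn2 and Tnnt1 any 1 of 5.

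**Figure D2:**
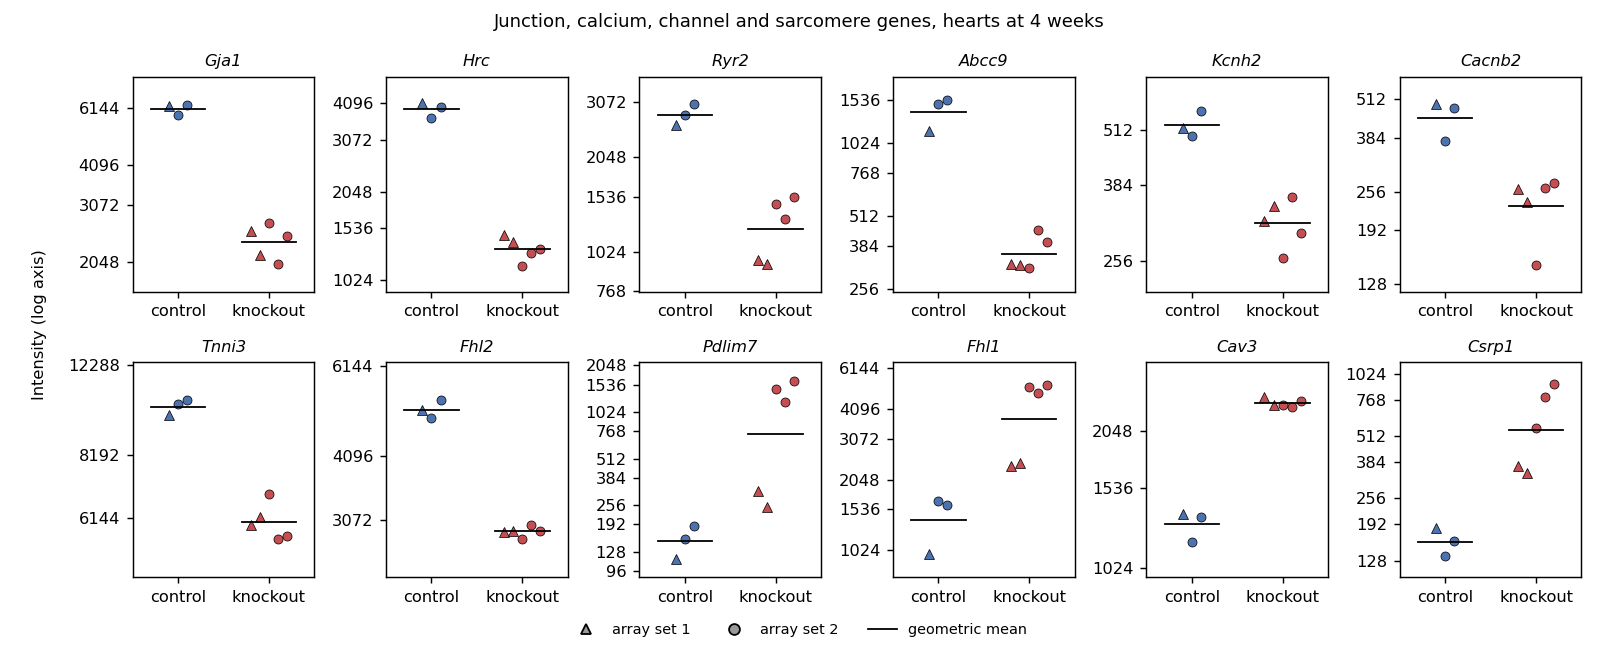
Intensity on a log axis of 12 junction, calcium, channel and sarcomere genes in each control (blue) and knockout (red) array at 4 weeks, with triangles for array set 1, circles for array set 2 and a line at the geometric mean. Knockout arrays of Gja1, Hrc and Fhl2 lie close together below all controls, while those of Pdlim7, Fhl1 and Csrp1 split by array set.

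The connexin genes Gja1 and Gja5 and 3 genes of the calcium store fell. Gja1, which encodes connexin 43, the main gap junction protein between ventricular muscle cells, read 6221, 5829.9 and 6294 in controls and 2554, 2151, 2704, 2018 and 2461 in knockouts. Its difference of -1.36 ± 0.09 had the smallest adjusted p of all tested genes outside the matrix and fuel-use lists (1.41e-06), and was -1.40 and -1.34 within the 2 sets. Gja5, the connexin of atria and conduction fibres, fell by 0.67 ± 0.19. Hrc, a histidine-rich protein that binds calcium in the sarcoplasmic reticulum, read 4101, 3641 and 3986 in controls and 1451, 1382, 1145, 1268 and 1306 in knockouts (-1.57 ± 0.12, adjusted p = 3.74e-06). Ryr2, the channel that releases this calcium, read 2584, 2786 and 3016 in controls and 967, 936, 1456, 1305 and 1537 in knockouts (-1.19 ± 0.17, adjusted p = 0.000399), and the pump gene Atp2a2 fell by 0.41 ± 0.07.

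Of 29 tested genes for the sarcoplasmic reticulum and calcium signalling (block: 13 higher, 3 lower) 6 rose and 3 fell. The falls were Hrc, Ryr2 and Atp2a2. Rcan1, a target and inhibitor of calcineurin, read 931, 722 and 983 in controls and 2951, 3095, 3296, 3071 and 3421 in knockouts (1.84 ± 0.20, adjusted p = 5.15e-05). The other rises were those of S100a13 (1.09 ± 0.26), the annexin genes Anxa4 (0.72 ± 0.16) and Anxa5 (0.62 ± 0.13), the calmodulin kinase gene Camk2d (0.61 ± 0.17) and Fkbp1a (0.52 ± 0.11).

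The called potassium channel genes fell, while other channel and pump genes were called in both directions. Of 13 potassium channel genes (block: 0 higher, 3 lower) 2 fell, none rose and 2 had a difference above 0. Abcc9, the sulphonylurea receptor subunit of ATP-sensitive potassium channels, read 1138, 1480.1 and 1529 in controls and 324, 320.0, 311, 446 and 398 in knockouts (-1.90 ± 0.23, adjusted p = 0.000151), 3.73-fold lower on average. Kcnh2, the channel of the rapid repolarizing current, read 517, 497 and 567 in controls and 316, 343, 260.4, 359.7 and 297 in knockouts (-0.72 ± 0.16, adjusted p = 0.00771). Of 25 sodium, calcium and chloride channel, pump and connexin genes (block: 7 higher, 7 lower) 4 fell and 3 rose. Cacnb2, a subunit of the L-type calcium channel, fell by 0.90 ± 0.19 (adjusted p = 0.00609), Clcn3 fell by 0.46 ± 0.13, and Fxyd5, which modulates the sodium pump, rose by 1.02 ± 0.25 (adjusted p = 0.0166). The pump subunit gene Atp1b1 (0.75 ± 0.19) and the calcium channel subunit gene Cacna2d1 (0.97 ± 0.28) were the other rises, and Gja1 and Gja5 the other falls. Dropping single arrays ended the calls (highest adjusted p in brackets) of Gja5 (0.188), S100a13 (0.0757), Anxa4 (0.0507), Camk2d (0.152) and Atp1b1 (0.106) without control replicate 2, Clcn3 (0.180) without control replicate 3, and Fxyd5 (0.0658) and Cacna2d1 (0.149) without control replicate 1.

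Of 27 tested adrenergic, G protein and cyclic nucleotide genes (block: 9 higher, 5 lower) 5 rose (18.5%) and 2 fell. Of the rises 4 encode G protein subunits: Gna13 (0.75 ± 0.12, adjusted p = 0.00116), the inhibitory subunits Gnai2 (0.45 ± 0.10) and Gnai3 (0.54 ± 0.13), and Gng10 (0.60 ± 0.15). Gna13 read 241, 249.8 and 273 in controls and 444, 402, 498, 451 and 407 in knockouts. Prkacb, a catalytic subunit of protein kinase A, was the other (0.45 ± 0.10). The falls were of Adcy9, an adenylyl cyclase (-1.03 ± 0.25), and Rgs2, which ends Gq signalling (-1.30 ± 0.39), whose groups overlapped. Of 51 kinase cascade genes (block: 12 higher, 4 lower) 2 rose, Prkca and Plk2, and 2 fell, Prkab1 (-1.31 ± 0.34) and Pim3 (-1.06 ± 0.32), or 3.92% each way. Prkca, the conventional protein kinase C of heart muscle, read 206, 182 and 222 in controls and 397, 416, 391, 412 and 510.1 in knockouts (1.01 ± 0.14, adjusted p = 0.000284). Calls that did not hold on leaving out 1 array, with the highest adjusted p this gave, were those of Gnai3 (0.0552), Gng10 (0.0875), Prkacb (0.0736) and Rgs2 (0.224) without control replicate 2, and Adcy9 (0.105), Prkab1 (0.124) and Pim3 (0.244) without control replicate 3.

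Genes that shape the actin skeleton gave as many rises as the sarcomere list. Of 58 tested small GTPases and actin regulators (block: 31 higher, 1 lower) 13 rose (22.4%) and 1 fell, 49 had a difference above 0, and the median was 0.31, or 0.23 after quantile normalization. Msn, encoding moesin, which ties actin to the membrane, read 1132, 729 and 892 in controls and 2311, 2186, 2308, 1922 and 2240.3 in knockouts (1.26 ± 0.15, adjusted p = 9.21e-05). Rasa1, a Ras inhibitor, rose by 0.81 ± 0.13 (adjusted p = 0.00108), Marcks, which tethers actin to the membrane, by 1.02 ± 0.22 and Rac1 by 0.31 ± 0.07. Further rises were of the actin bundlers and cappers Pls3 (0.73 ± 0.15), Capg (0.94 ± 0.27), Cnn1 (1.45 ± 0.33) and Cnn2 (0.73 ± 0.22), the severing protein gene Cfl1 (0.47 ± 0.13), the scaffold gene Iqgap1 (0.80 ± 0.20), Rhoq (0.49 ± 0.11) and Arhgap1 (0.83 ± 0.22). The 1 fall was of Pfn2, a profilin (-1.24 ± 0.22).

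Microtubule and adhesion genes were called in smaller numbers, with shares of rises nearer that of all tested genes. Of 39 tubulin, kinesin and intermediate filament genes (block: 17 higher, 4 lower) 5 rose (12.8%, against 6.59% of all tested genes) and 1 fell (2.56%, against 4.61%). Tuba1a, the tubulin of growing cells, read 1943, 2296 and 2226 in controls and 4265, 3662, 4989, 3587 and 4060.4 in knockouts (0.92 ± 0.16, adjusted p = 0.00184), while Tuba4a, another alpha-tubulin, read 629, 819 and 857 in controls and 273, 268, 288, 216 and 366 in knockouts (-1.40 ± 0.24, adjusted p = 0.00143). Mapre1, which tracks growing microtubule ends, rose by 0.71 ± 0.15, with knockout arrays that differed from each other by less than 3%. The kinesin genes Kif1a (0.90 ± 0.20) and Kif5b (0.53 ± 0.15) and Septin2 (0.57 ± 0.14) rose too. Of 38 intercalated disc and adhesion receptor genes (block: 16 higher, 4 lower) 4 rose (10.5%) and 1 fell (2.63%). Itgav, the alpha V integrin, read 587, 391 and 431 in controls and 1163, 1041, 1061, 1006 and 1223 in knockouts (1.22 ± 0.14, adjusted p = 7.76e-05), Sdc2 rose by 0.64 ± 0.15, Pkp2 by 0.63 ± 0.18 and Itgb1 by 0.26 ± 0.08. Dsg2, the desmosomal cadherin of heart muscle, fell by 0.95 ± 0.20 (adjusted p = 0.00731). Leaving out 1 array ended the calls, with the highest adjusted p given, of Rac1 (0.0834), Cnn2 (0.242), Cfl1 (0.153), Iqgap1 (0.0809), Rhoq (0.0583), Arhgap1 (0.117), Kif5b (0.181) and Septin2 (0.107) without control replicate 2, Capg (0.153) and Pkp2 (0.140) without control replicate 1, and Cnn1 (0.0684) and Itgb1 (0.120) without control replicate 3.

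Secreted signals and their receptors included some of the larger changes. Of 37 tested growth factors and ligands (block: 8 higher, 6 lower) 5 rose (13.5%, against 6.59% of all tested genes), Nppa and Nppb among them. In the same list 2 fell (5.41%, against 4.61%). Hbegf, a ligand of the EGF receptor that acts on heart muscle and fibroblasts, read 143, 99.4 and 144 in controls and 470.1, 539, 398, 303 and 571 in knockouts (1.69 ± 0.25, adjusted p = 0.000625). Fstl1, a follistatin-like protein released by the injured heart, read 913, 771 and 1032 in controls and 2659.9, 2351, 3373, 2683 and 3305 in knockouts (1.65 ± 0.24, adjusted p = 0.000538). Bmp7, a bone morphogenetic protein known to oppose fibrosis, read 1738, 1996 and 1782 in controls and 822, 788, 756, 885 and 788 in knockouts (-1.17 ± 0.14, adjusted p = 9.02e-05). All Bmp7 knockout arrays were at or below 885 and all controls at or above 1738. Vegfb fell by 0.62 ± 0.16, and Bdnf rose by 0.69 ± 0.20. Of 44 receptors (block: 14 higher, 8 lower) 4 rose (9.09%) and 2 fell (4.55%), shares near those of all tested genes. Axl, a receptor kinase for Gas6 (1.13 ± 0.20, adjusted p = 0.00203), Lrp1, a scavenger receptor (0.85 ± 0.15), Pdgfra, the fibroblast receptor for PDGF (0.89 ± 0.23), and Eng (0.54 ± 0.14) rose. Sema5b and Lifr, the receptor of leukaemia inhibitory factor (-0.75 ± 0.19), fell. The calls lost without 1 array, each with its highest adjusted p, were those of Vegfb (0.111), Pdgfra (0.117), Eng (0.0847) and Lifr (0.116) without control replicate 2, and Bdnf (0.151) without control replicate 1.

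Of 41 tested lysosome and autophagy genes (block: 25 higher, 4 lower) 9 rose (22.0%) and 1 fell, 34 had a difference above 0, and the median was 0.37 (0.26 after quantile normalization). Ctsz, a lysosomal carboxypeptidase, read 92.7, 121 and 148 in controls and 336, 311, 459.9, 447 and 328 in knockouts (1.53 ± 0.25, adjusted p = 0.00129). Ctsl, an endopeptidase of the same family that heart muscle needs for turnover, read 1059.6, 996 and 1203 in controls and 1701, 1876, 2017, 2238 and 2135 in knockouts (0.86 ± 0.15, adjusted p = 0.00167). Atp6v1h, a regulatory subunit of the proton pump, read 183, 224 and 224 in controls and 352, 355, 564, 545 and 542 in knockouts (1.08 ± 0.18, adjusted p = 0.00131). The membrane proteins Cd63 (0.78 ± 0.15) and Lamp1 (0.53 ± 0.11), the hydrolase gene Gusb (0.54 ± 0.15), the protease inhibitor gene Cst3 (0.50 ± 0.14), Gabarap of autophagosomes (0.45 ± 0.10) and Ctsb (0.43 ± 0.10) completed the rises. Npc1, which exports cholesterol from lysosomes, fell by 1.11 ± 0.32, with groups that overlapped. On leaving out 1 array, limma lost the calls (highest adjusted p in brackets) of Lamp1 (0.0538), Gusb (0.166), Gabarap (0.0746) and Ctsb (0.0903) without control replicate 2, Cst3 (0.135) without control replicate 1, and Npc1 (0.209) without control replicate 3.

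Genes for the folding, degradation and synthesis of proteins came next. Of 31 heat shock and mitochondrial chaperone genes (block: 7 higher, 8 lower) 3 rose and 3 fell (9.68% each way). Hspa1b, inducible Hsp70, whose probes may also read its near-identical neighbour, read 168, 149 and 153 in controls and 502, 487, 820.1, 585 and 557 in knockouts (1.79 ± 0.32, adjusted p = 0.00205), and the small chaperone gene Hspb2 rose by 0.76 ± 0.14 and the co-chaperone gene Bag3 by 0.47 ± 0.11. Hspd1, the chaperonin of mitochondria, read 2556, 2764 and 2665 in controls and 1914, 1902, 1440.0, 1308 and 1624 in knockouts (-0.71 ± 0.12, adjusted p = 0.00172), although a second, dimmer probe set differed by 0.17 ± 0.21. Hsph1 (-1.02 ± 0.26) and Dnaja3 (-0.47 ± 0.14) were the other falls. Of 41 endoplasmic reticulum and secretory genes (block: 20 higher, 2 lower) 3 rose (7.32%, against 6.59% of all tested genes) and 1 fell (2.44%, against 4.61%). Herpud1, induced by unfolded proteins in the endoplasmic reticulum, read 916, 1369 and 1621 in controls and 445, 416, 567, 734 and 697 in knockouts (-1.16 ± 0.22, adjusted p = 0.00375), and Sec23b of secretory vesicles rose by 0.87 ± 0.18 and the cyclophilin gene Ppic by 0.90 ± 0.27.

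Of 36 proteasome genes (block: 15 higher, 1 lower) 1 rose and 1 fell (2.78% each way), shares below those of all tested genes. Psmd8, of the regulatory lid, read 363, 669 and 807 in controls and 971, 1177, 2122, 2343 and 2841 in knockouts (1.56 ± 0.44, adjusted p = 0.0345), and Psme1, of the interferon-inducible activator, read 1063, 2044 and 2221 in controls and 440.2, 431, 758, 862 and 802 in knockouts (-1.40 ± 0.35, adjusted p = 0.0195). In both genes control replicate 1 and knockout replicates 1 and 2 read lower than the other arrays of their groups. Of 35 ubiquitin genes (block: 9 higher, 3 lower) Ube2s (0.67 ± 0.12) and Mdm2 rose (5.71%) and Usp2 (-0.61 ± 0.16) fell (2.86%), again below those shares.

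Of 35 translation factor genes (block: 14 higher, 3 lower) 3 rose (8.57%, against 6.59% of all tested genes) and 1 fell (2.86%, against 4.61%). Eef1a1, the general elongation factor, which has near-identical copies in the genome, read 4048, 4296 and 4369 in controls and 6412, 6178, 6195, 7211 and 6867 in knockouts (0.63 ± 0.06, adjusted p = 2.56e-05), and its muscle form Eef1a2 differed by -0.10 ± 0.24 (adjusted p = 0.904). Eif4a2, an initiation helicase, read 3009, 2950.1 and 3235 in controls and 2182, 2044, 2137, 2287 and 2014 in knockouts (-0.52 ± 0.08, adjusted p = 0.00110). Eif1a (0.75 ± 0.20) and Eif3b (0.50 ± 0.13) were the other rises. Of 24 tRNA synthetase and amino acid synthesis genes (block: 11 higher, 0 lower) 2 rose (8.33%), Aars (0.53 ± 0.13) and the stress factor gene Ddit3 (0.58 ± 0.15). Of 24 cytosolic ribosomal protein genes (block: 8 higher, 0 lower) 2 rose (8.33%), Rpl41 (0.26 ± 0.07) and Rplp0 (0.31 ± 0.09). None of 38 splicing and RNA-binding genes (block: 5 higher, 3 lower) was called by limma, 2 were higher and 2 lower at an unadjusted p under 0.05. Sf3b1 had the smallest p (0.85 ± 0.31, adjusted p = 0.1002). Of 52 mitochondrial ribosome, translation and import genes (block: 7 higher, 13 lower) 4 fell (7.69%) and 1 rose (1.92%). The falls were of the initiation factor gene Mtif2 (-1.05 ± 0.23), the elongation factor gene Gfm1 (-0.48 ± 0.15), Mrpl9 (-0.81 ± 0.23) and Mrpl18 (-0.28 ± 0.09). The rise was of the import gene Timm17b (0.46 ± 0.12). Not held without 1 array, by the highest adjusted p, were the calls of Bag3 (0.0643), Eif1a (0.0947), Eif3b (0.146), Ddit3 (0.129) and Timm17b (0.0689) without control replicate 2, Hsph1 (0.107), Gfm1 (0.181), Psme1 (0.105), Usp2 (0.0825), Aars (0.0567), Mtif2 (0.0620) and Mrpl9 (0.183) without control replicate 3, and Dnaja3 (0.148), Ppic (0.151), Mrpl18 (0.154), Psmd8 (0.138), Rpl41 (0.119) and Rplp0 (0.139) without control replicate 1.

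In the fit without the block, falls outnumbered rises in most metabolic lists outside fuel use. With the block they did so only for amino acid and ketone breakdown, for peroxisome genes and, by 12 to 11, for antioxidant enzymes. Of 24 tested genes for amino acid and ketone breakdown (block: 3 higher, 11 lower) 7 fell (29.2%, against 4.61% of all tested genes) and none rose, with a median of -0.25. Bckdha, the E1 alpha subunit of the branched-chain keto acid dehydrogenase, read 558, 817 and 891 in controls and 225, 228, 214, 344 and 279 in knockouts (-1.49 ± 0.19, adjusted p = 0.000199). Bckdhb, its E1 beta subunit, read 487, 610.2 and 707 in controls and 229, 251, 261, 239 and 229 in knockouts (-1.25 ± 0.15, adjusted p = 0.000140). Ivd, which acts next on the leucine branch, read 954, 910.5 and 1056 in controls and 309, 309, 227, 487 and 411 in knockouts (-1.48 ± 0.20, adjusted p = 0.000294). In each of these 3 genes the lowest control array was brighter than the highest knockout array. Auh, a later enzyme of leucine breakdown, fell by 0.82 ± 0.16, and Mcee and Mmut, which turn propionyl units into succinyl-CoA, by 0.87 ± 0.17 and 0.79 ± 0.16. Oxct1, which activates ketone bodies, fell by 0.56 ± 0.14.

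Peroxisome, coenzyme Q and mitochondrial dynamics genes had the largest share of falls among the lists plotted below. Of 18 tested (block: 0 higher, 10 lower) 7 fell (38.9%), none rose, 2 had a difference above 0 and the median was -0.39. Phyh, which begins the breakdown of phytanic acid, read 2470.2, 2748 and 2990.4 in controls and 1057, 1102, 929, 1245 and 1575 in knockouts (-1.22 ± 0.15, adjusted p = 0.000159). Of coenzyme Q synthesis 3 genes fell. Coq7 read 637, 1294 and 1527 in controls and 218, 216, 464, 363 and 487 in knockouts (-1.66 ± 0.43, adjusted p = 0.0204), with control replicate 1 well below the other controls. Coq9, the partner of Coq7, read 2036, 2647 and 2845 in controls and 1163, 1066, 1454, 1532 and 1541 in knockouts (-0.89 ± 0.15, adjusted p = 0.00122), and Coq3 fell by 0.56 ± 0.14. Scp2 (-0.75 ± 0.19) and Acot8 (-0.70 ± 0.21) of peroxisomes and the fusion gene Mfn1 (-0.36 ± 0.10) were the other falls. Among these genes the calls lost on leaving out 1 array (highest adjusted p in brackets) were those of Oxct1 (0.0844), Coq7 (0.109), Coq3 (0.0988), Scp2 (0.127) and Mfn1 (0.0841) without control replicate 3, and Acot8 (0.173) without control replicate 2. The call of Acot8 was lost on leaving out any 1 of 6 arrays, and that of Mfn1 any 1 of 5.

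Lipid synthesis genes split. Of 30 tested genes for cholesterol, lipid synthesis and lipoproteins (block: 6 higher, 6 lower) 5 fell (16.7%) and 2 rose. Besides Mid1ip1 the falls were of Thrsp, its partner in lipogenesis (-1.33 ± 0.28), Gpam, the first enzyme of glycerolipid synthesis, Lpin1 (-0.98 ± 0.19) and Fdft1 of sterol synthesis (-0.60 ± 0.16). Gpam read 1742, 1957 and 2229.6 in controls and 909, 912, 792, 964 and 1106 in knockouts (-1.07 ± 0.12, adjusted p = 5.30e-05). Fasn, the fatty acid synthase, rose by 1.04 ± 0.22 (adjusted p = 0.00610) and Lrp1 was the other rise. Of 24 phospholipid and sphingolipid genes (block: 11 higher, 4 lower) 3 rose and 2 fell, the rises being Pcyt1a of phosphatidylcholine synthesis (0.75 ± 0.11), Plpp1 (1.29 ± 0.24) and Lypla1 (0.35 ± 0.09). The falls were of Smpd2 (-0.61 ± 0.17) and the prostaglandin D synthase gene Ptgds, which read 3235, 1881 and 2660.4 in controls and 1032, 936, 946, 1334 and 1175 in knockouts (-1.22 ± 0.21, adjusted p = 0.00144).

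Glutathione and antioxidant enzymes changed in both directions. Of 47 tested (block: 11 higher, 12 lower) 7 fell (14.9%) and 3 rose (6.38%). The falls included, besides Gsta4, the transferase genes Gstm2 (-0.95 ± 0.19) and Gstz1 (-0.92 ± 0.16), the aldehyde dehydrogenase gene Aldh2 (-0.86 ± 0.24), Cyp4b1 (-0.72 ± 0.16) and the mitochondrial peroxide-removing pair Txnrd2 (-0.63 ± 0.14) and Prdx3 (-0.54 ± 0.15). Gpx3, Gpx1 (0.85 ± 0.23, with overlapping groups) and Gsto1, the omega class transferase, rose. Gsto1 read 1181, 1910.4 and 2052 in controls and 2925, 3311, 4085, 4125 and 3735 in knockouts (1.11 ± 0.19, adjusted p = 0.00163). Of 28 solute carriers and carbonic anhydrases (block: 5 higher, 2 lower) Car14 and the membrane-bound Car4 (-0.70 ± 0.17) fell and the phosphate carrier gene Slc20a1 rose (0.72 ± 0.20). A second, dimmer probe set of Car4 differed by -0.15 ± 0.16. Among 19 iron and heme genes (block: 3 higher, 2 lower) Cyb5r1 rose (0.84 ± 0.18), and among 25 nucleotide genes (block: 7 higher, 4 lower) Uck2 and Adssl1, the muscle adenylosuccinate synthase gene (1.18 ± 0.32), rose. Dropping single arrays ended the calls (highest adjusted p in brackets) of Fdft1 (0.149), Smpd2 (0.133), Aldh2 (0.177), Cyp4b1 (0.0529) and Txnrd2 (0.0659) without control replicate 3, Fasn (0.0523), Prdx3 (0.145), Gpx1 (0.135), Car4 (0.0967) and Cyb5r1 (0.0524) without control replicate 2, and Lypla1 (0.0635), Slc20a1 (0.139) and Adssl1 (0.130) without control replicate 1.

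Of 21 tested interferon-induced and antigen presentation genes (block: 2 higher, 6 lower) 3 fell and none rose. Iigp1, an interferon-induced GTPase, read 283, 971 and 2113 in controls and 214, 149, 82.6, 98.8 and 88.7 in knockouts (-2.66 ± 0.47, adjusted p = 0.00194). Its 3 control arrays differed by more than 7 times, and the difference was -0.62 within set 1 and -3.78 within set 2. Cd74 (-1.07 ± 0.32) and H2-Aa (-0.96 ± 0.29) of the class II pathway also fell, and for H2-Aa the groups overlapped. Of 21 cytokine and receptor genes (block: 2 higher, 4 lower) Cx3cl1, a chemokine tethered to the cell surface, read 133, 163 and 145 in controls and 362, 355, 439.9, 567 and 438 in knockouts (1.44 ± 0.16, adjusted p = 5.30e-05), and the receptor genes Ifngr2 (-0.57 ± 0.12) and Il10rb (-0.43 ± 0.10) fell. A second, dimmer probe set of Cx3cl1 went the other way, by -0.31 ± 0.16. Of 24 complement, coagulation and protease inhibitor genes (block: 8 higher, 2 lower) 4 rose (16.7%) and none fell: Serpinb6a, Cst3, F2r, the thrombin receptor, which read 723, 687 and 756 in controls and 1313, 1262, 1652, 1392 and 1485 in knockouts (0.96 ± 0.12, adjusted p = 0.000200), and Fgl2, a fibrinogen-like prothrombinase (1.17 ± 0.16, adjusted p = 0.000349). Of 11 imprinted growth genes (block: 3 higher, 0 lower) Meg3, a long non-coding RNA, rose (1.05 ± 0.28), while its second, dimmer probe set differed by 0.29 ± 0.25. Calls that did not hold on leaving out 1 array, with the highest adjusted p this gave, were those of Cd74 (0.236), H2-Aa (0.263) and Ifngr2 (0.0555) without control replicate 3, Il10rb (0.0543) and Cst3 (0.135) without control replicate 1, and Meg3 (0.120) without control replicate 2.

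**Figure D3:**
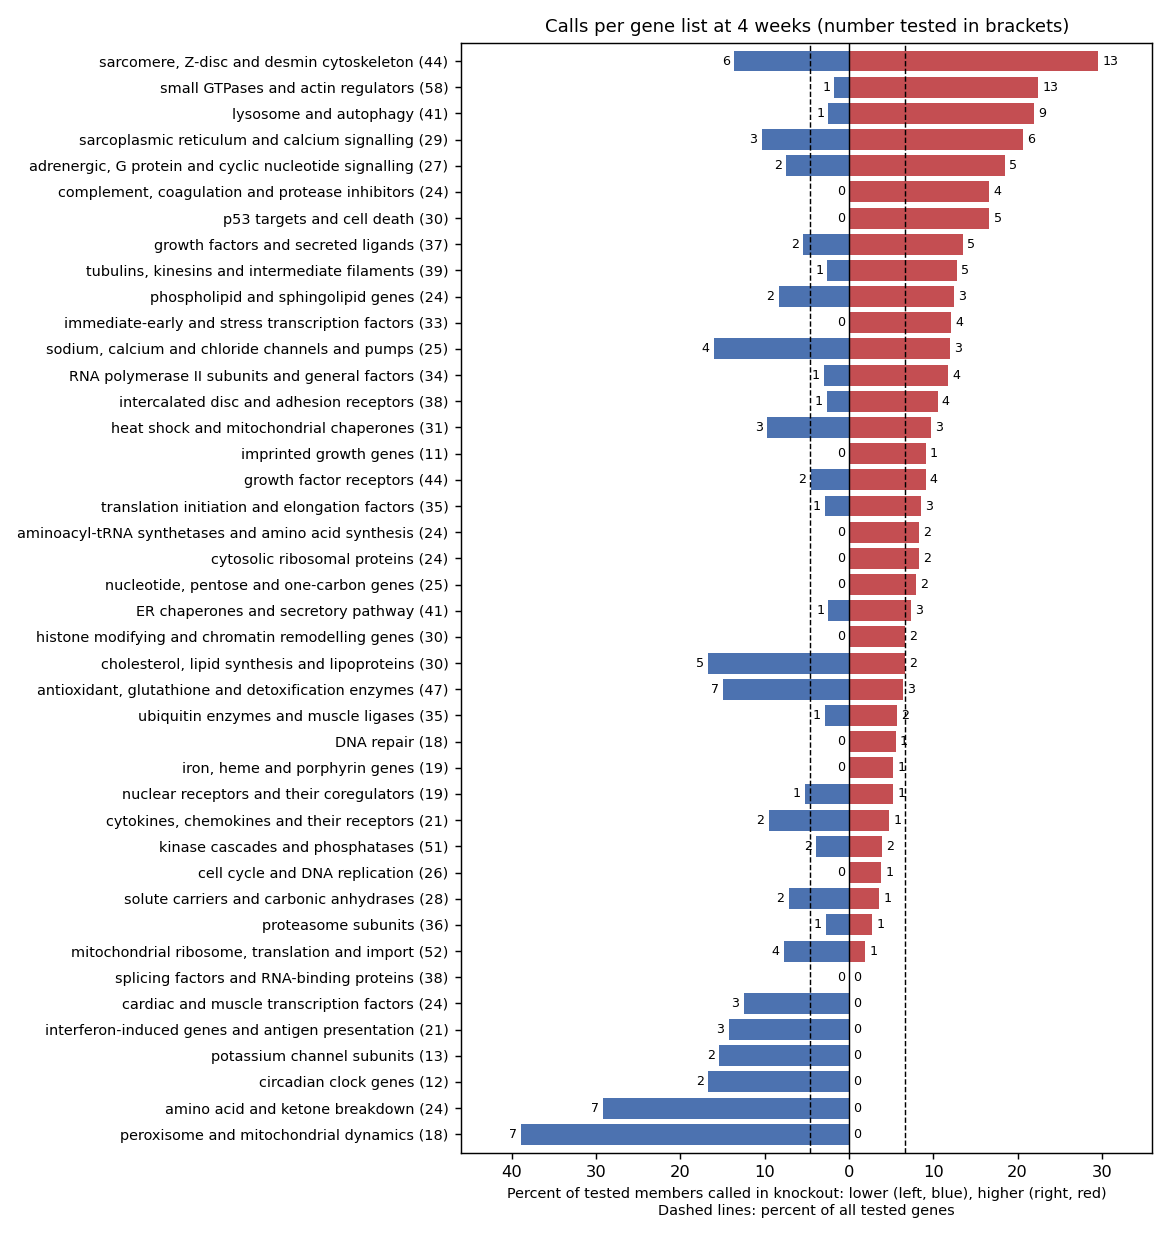
Percent of the tested members of 42 gene lists that were called higher (right, red) or lower (left, blue) in knockout hearts at 4 weeks, with the number of calls at each bar, the number tested in brackets and dashed lines at the 6.59% higher and 4.61% lower of all 4950 tested genes. In this fit, without the array set block, sarcomere and Z-disc genes show the largest share of rises (13 of 44), and the peroxisome list the largest share of falls (7 of 18).

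Pairs of related genes were looked at for changes in opposite directions. Of 45 pairs 33 had both members tested, and in 3 of these one member rose and the other fell. Besides Fhl1 and Fhl2 these were pairs of fuel-use enzymes: the platelet phosphofructokinase gene Pfkp rose (1.79 ± 0.25) as the muscle gene Pfkm fell (-0.87 ± 0.17), and Ldha rose (0.27 ± 0.08) as Ldhb fell (-0.52 ± 0.10). Pfkp read 303, 219 and 339 in controls and 767, 793, 868, 1360.1 and 1487 in knockouts, and Pfkm 3054, 3753 and 3950.2 in controls and 1605, 1452, 2192, 2189 and 2512 in knockouts. In 3 pairs both members moved the same way, Actn1 with Actn2, Gja5 with Gja1 and Gpx1 with Gpx3. Leaving out 1 array ended the calls, with the highest adjusted p given, of Ldha (0.179) without control replicate 2. With the array set block 5 pairs had one member called higher and the other lower, the further ones being Tcea1 with Tcea3 and Ckb (0.52 ± 0.21) with Ckm (-0.67 ± 0.32), the brain and muscle creatine kinase genes, neither of which was called without it (adjusted p = 0.152 and 0.241).

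Markers of the cell types of the heart were looked at in the same way, and not all cell types had called markers. Counts are of tested markers, while summed intensities cover every marker of a list on the array, also those too dim to test. These were 12 fibroblast, 15 endothelial, 17 macrophage, 14 skeletal muscle and 9 atrial and conduction markers. Of 11 heart muscle markers (block: 0 higher, 5 lower) 4 fell (Ryr2, Tnni3, Myh6 and Tnnt2) and none rose, and their summed intensity was 80666 to 85030.1 in control and 68897 to 72895 in knockout arrays. Of 9 fibroblast markers (block: 8 higher, 0 lower) 6 rose, among them Lum (1.01 ± 0.11), Dcn (0.51 ± 0.06) and Thy1 (0.75 ± 0.19), with sums of 14247 to 15502 and 23759 to 27627, and several of these markers are matrix genes. Col1a1, one of them, read 1356, 1168 and 1329 in controls and 3765, 3964, 4552, 4061 and 4403 in knockouts (1.68 ± 0.22). Of 10 smooth muscle and pericyte markers (block: 4 higher, 0 lower) Acta2 (1.01 ± 0.19) and Cnn1 (1.45 ± 0.33) rose, with sums of 5907 to 6817 and 7386 to 12439.9. These sums did not overlap between the groups.

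Of 13 endothelial markers (block: 3 higher, 1 lower) Eng rose. Of 7 skeletal muscle markers (block: 3 higher, 1 lower) Myl1 rose, with sums of 5907 to 7317 in control and 10403 to 11348 in knockout arrays, a rise carried by Myl1 itself, which went from a mean of 915 to 5777. Of 5 atrial and conduction markers (block: 1 higher, 2 lower) Nppa rose and Gja5 and Stard10 (-0.89 ± 0.15) fell, with sums of 4909.6 to 5429.6 and 9160.4 to 12430.1, most of whose rise was that of Nppa (means of 1542 and 6261). None of 10 macrophage, 7 lymphocyte, 4 erythroid, 4 adipocyte or 3 lung, nerve and mesothelial markers was called by limma, and the members with the smallest p were Laptm5 (0.31 ± 0.15), Cd79b (0.57 ± 0.29), Hba-a1 (0.44 ± 0.15), Cidec (0.59 ± 0.24) and Krt19 (-0.21 ± 0.19). With the array set block 1 lymphocyte, 1 erythroid and 2 adipocyte markers were called higher, 1 erythroid marker lower and no macrophage or lung, nerve and mesothelial marker. At an unadjusted p under 0.05, 1 erythroid and 1 adipocyte marker were higher and no marker of the other 3 lists was called in either direction. Endothelial sums were 8579 to 12283 in control and 9655 to 14575 in knockout arrays, and macrophage sums 4201 to 5898 and 4313 to 7214, so both overlapped. In RNA from whole hearts, fewer cells of a type and less RNA per cell cannot be told apart, and the part of the cell mixture in the falls of muscle genes and the rises of actin, lysosome and adhesion genes was not tested. The calls lost without 1 array, each with its highest adjusted p, were those of Thy1 (0.0985) and Cnn1 (0.0684) without control replicate 3, and Eng (0.0847) and Gja5 (0.188) without control replicate 2.

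The knockout effect at 4 weeks was then set against that at 2 weeks, whose arrays had entered the fit above through its shared estimate of the spread. At 2 weeks 1 gene, Acta1, was called without the array set block, and no count with it was made. Of the 554 genes called at 4 weeks, 459 had a difference of the same sign at 2 weeks. How many of all tested genes did so was not counted. The effect itself differed between the ages for 77 genes (1.56%), all of them called at 4 weeks, of which 38 had the more positive effect at 4 weeks and 39 the more negative one. The difference between ages had its smallest adjusted p for Gja1: the knockout effect was -1.36 ± 0.09 at 4 weeks and -0.07 ± 0.09 at 2 weeks, a difference of -1.29 ± 0.13 (adjusted p = 0.000328). Hopx went from 0.07 ± 0.14 at 2 weeks to -1.61 ± 0.13 at 4 weeks (adjusted p of the difference = 0.000939), Fkbp4 from -0.23 ± 0.15 to -1.94 ± 0.14 (0.000998), Plbd1 from 0.02 ± 0.18 to -1.99 ± 0.17 (0.00106) and Hrc from -0.23 ± 0.13 to -1.57 ± 0.12 (0.00147). Gpx3 (0.22 ± 0.14 against 1.57 ± 0.13, adjusted p = 0.00220) and Mfge8 (0.13 ± 0.09 against 0.95 ± 0.09, adjusted p = 0.00442) were rises of the same kind. Of the matrix and fuel-use genes the naming rule took, Col4a1 differed between ages by 1.05 ± 0.12, the citric acid cycle gene Idh2 by -1.07 ± 0.14 and Mb, the oxygen store of muscle, by -0.64 ± 0.08.

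For Acta1 the effect was larger at 2 weeks (1.36 ± 0.12) than at 4 weeks (0.65 ± 0.11), a difference of -0.72 ± 0.16 (adjusted p = 0.0386). Ptgds differed by 0.68 ± 0.22 at 2 weeks, where it was not called, and by -1.22 ± 0.21 at 4 weeks (adjusted p of the difference = 0.00488). For Nppa (1.73 ± 0.35 at 2 weeks), Cdkn1a (1.29 ± 0.32) and Gtf2h1 (0.61 ± 0.15) the effects at 2 weeks had the direction of 4 weeks, and neither those effects nor the differences between ages were called (adjusted p of the difference = 0.999, 0.0688 and 0.999). Blocking on the array set called 616 differences between ages, and leaving out control replicate 2 at 4 weeks 20, control replicate 3 25 and knockout replicate 3 49.

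The sizes of the 4-week differences were last compared between the array sets, since set 1 held 1 control array and set 2 held 2. Cdkn1a, Pdlim7, Csrp1 (0.88 and 2.22), Tcea3 and Iigp1 were larger in size within set 2, and Myl1 within set 1 (3.95 and 2.30). Cnn1 differed by 0.43 within set 1 and 2.03 within set 2, and Gja5 by -0.20 and -0.92. For Gja1, Hrc, Hopx, Fhl2, Eef1a1 and Eif4a2 the values within the 2 sets lay within 0.2 of each other. The difference in size between sets was not tested, and in the control arrays at 4 weeks set and inferred sex coincide, so they cannot be told apart there. Of the genes given here, those no longer called after quantile normalization were Arhgap1, Atp1b1, Bdnf, Cacna2d1, Camk2d, Capg, Cdk8, Cfl1, Cnn2, Ctsb, Dap, Ddit3, Dnaja3, Eif1a, Eif3b, Fkbp1a, Fxyd5, Gng10, Gusb, H2-Aa, Hdac6, Hmgn1, Id2, Itgb1, Kdelr3, Kif5b, Lamp1, Ldha, Mdm2, Mrpl18, Nr4a1, Pdlim1, Pdlim3, Pim3, Polr2l, Prkacb, Rac1, Rhoq, Slc20a1, Timm17b and Tk1 (adjusted p 0.0501 to 0.215). With each array scaled to a common median, 109 of the 145 called genes that the naming rule took stayed called, and of all genes given here the calls lost were of Aars, Acot9, Actn1, Actn2, Adssl1, Aldh2, Anxa5, Arhgap1, Bag3, Bdnf, Cacna2d1, Camk2d, Capg, Cd63, Cdk8, Cfl1, Cnn2, Cst3, Ctsb, Dap, Dcn, Ddit3, Eif1a, Eif3b, Eng, Fhl1, Fkbp1a, Fxyd5, Gabarap, Gfm1, Gja5, Gnai2, Gnai3, Gng10, Gusb, H2-Aa, Hdac6, Hmgn1, Hspb2, Id2, Iqgap1, Itgb1, Kdelr3, Kif1a, Ldha, Lypla1, Mapre1, Mdm2, Meg3, Mfn1, Mrpl9, Myh6, Npc1, Nppb, Nr4a1, Oxct1, Pdgfra, Pdlim1, Pdlim3, Pdlim7, Pim3, Pkp2, Ppic, Prdx3, Prkacb, Psmd8, Rac1, Rgs2, Rpl41, Rplp0, S100a13, Scp2, Sdc2, Septin2, Slc20a1, Smpd2, Timm17b, Tk1, Tnnt1, Tpm4, Vegfb and Xirp1 (adjusted p 0.0510 to 0.536).

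**Figure D4:**
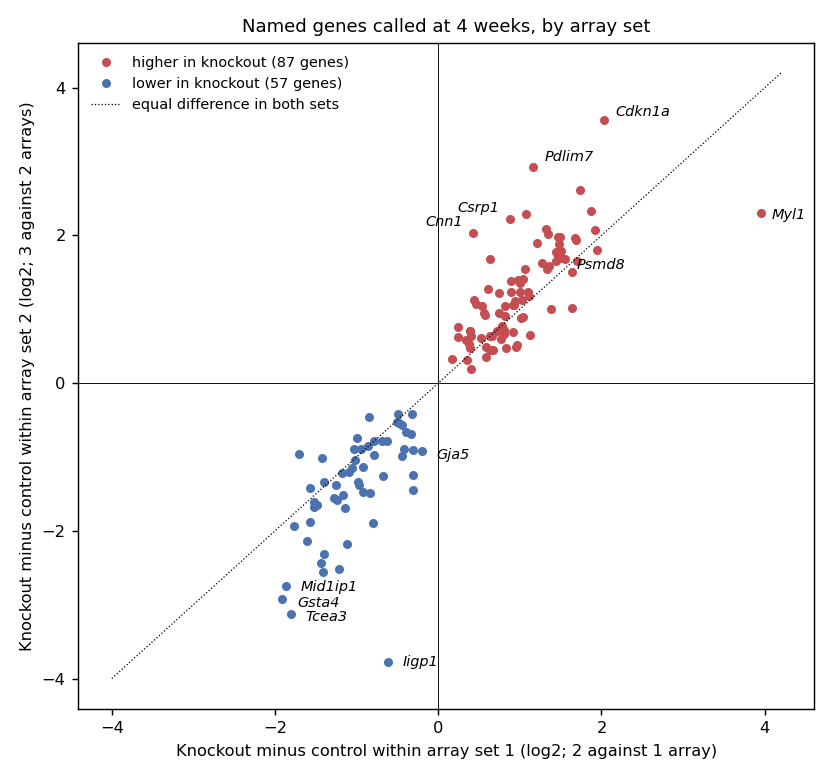
Knockout minus control difference at 4 weeks (log2) within array set 1 (horizontal, 2 knockout arrays against 1 control) and within array set 2 (vertical, 3 against 2) for 144 named genes called at 4 weeks, red for 87 higher and blue for 57 lower in knockout, with a dotted line of equal size. All points lie in the quadrants of equal sign, which the choice of genes on the same arrays made likely, and Iigp1, Pdlim7 and Cnn1 lie well off the line.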

How the data were processed

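Heart RNA was hybridised to 1-colour arrays with biotin label, 1 array a sample, per the labels. The authors deposited 1 linear intensity per probe set and array, and no source used here gives the software or scaling behind these intensities. Values bottom out at 0.95, array medians lay between 173.7 and 216.8, and the number of arrays limits the precision. Of 12422 probe sets 10833 had 1 gene symbol (10817 updated through the gene ID), 396 several and 1193 none. Each gene was read from its probe set with the highest mean, 4950 of 8251 genes were tested, and the dimmest 40% were not. Values of untested genes come from a fit to all 8251.

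Groups were fitted with limma 3.58.1 (R 4.3.3) on log2(intensity + 16), with 1 mean per genotype and age over all 15 arrays (11 residual degrees of freedom), a mean-variance trend and Benjamini-Hochberg adjustment. No further normalization was applied. The array sets and sexes were found from the values. The script was tested on simulated data. Alternatives changed normalization, pseudocount, filter, probe set choice, blocks and arrays.

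Of 60 gene lists (2117 of 2712 symbols with a probe set) 53 lie outside matrix, fuel use and sex linkage and are described. Members and lists were chosen with earlier results of these data known. Named genes are, of called genes with non-overlapping groups outside the matrix, fuel-use and sex-linked lists, the 20 that rose and the 20 that fell most, the 10 of each with the largest moderated statistic, 3 members of each list by p, pairs with opposite calls, 12 set genes and the 8 surest age differences that are also called. Further called list members were named after their values were seen. Promoter windows are RefSeq's.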

Additional observations from a re-analysis of the deposited data

Results flagged for a closer look

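In 8 of 154 groups of 5 knockout arrays tested, 1 array stood apart from the others by a larger share of the range than Dixon's critical value for 5 samples, where chance gives about 1 in 20 groups. Far above the rest were Gpx3 in replicate 4 at 7378 (others 5465 to 5758), Nampt in replicate 4 at 353 (others 170.0 to 221), Eif3b in replicate 5 at 1296 (others 1081 to 1124), Ube2s in replicate 2 at 1177 (others 949 to 1005) and Prkca in replicate 5 at 510.1 (others 391 to 416). Far below the rest were Rpl41 in replicate 5 at 7036 (others 7269.9 to 7338), Gja5 in replicate 3 at 195 (others 299 to 323) and Ldha in replicate 2 at 4378 (others 4698 to 4817).

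Of the named genes 46 had a knockout effect that differed between the ages in limma's test of the difference (adjusted p under 0.05). Values are the effect at 4 weeks minus that at 2 weeks on the log2 scale. It was more positive at 4 weeks for Pfkp (1.89), Col1a1 (1.61), Fstl1 (1.52), Gpx3 (1.36), Cx3cl1 (1.33), Rcan1 (1.33), Serpinb6a (1.19), Msn (1.09), Itgav (1.08), Phlda3 (1.05), Col4a1 (1.05), Fgl2 (1.02), Ddb1 (0.92), F2r (0.91), Hspb2 (0.90), Mafk (0.87), Lum (0.83), Mfge8 (0.82), Cav3 (0.74) and Eef1a1 (0.42). It was more negative for Mid1ip1 (-2.23), Tcea3 (-2.21), Plbd1 (-2.01), Car14 (-1.94), Ptgds (-1.91), Mlf1 (-1.89), Abcc9 (-1.84), Fkbp4 (-1.70), Hopx (-1.68), Myom2 (-1.59), Hsdl2 (-1.37), Hrc (-1.34), Ivd (-1.32), Gja1 (-1.29), Bckdha (-1.25), Phyh (-1.14), Bckdhb (-1.07), Idh2 (-1.07), Bmp7 (-0.99), Gpam (-0.93), Fhl2 (-0.73), Acta1 (-0.72), Ldhb (-0.68), Tnni3 (-0.68), Mb (-0.64) and Eif4a2 (-0.58). Leaving out control replicate 2 at 4 weeks left 20 such genes in all of 77, and control replicate 3 left 25.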

How the results depend on the processing

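The 2 counts were recomputed under 24 planned and 8 added alternatives, the added ones chosen after the data were seen. Of genes called at 4 weeks (554), there were 1756 with a block for the array set, 1169 within array set 1, 1435 within array set 2, 1736 with the block and quantile normalization, 1564 with array set and inferred sex as blocks and 1133 with array weights. Differences between ages (77) numbered 616, 297, 358, 644, 450 and 637 under the same 6 settings, and 9 with median scaling. Leaving out 1 array, with or without the array set block, gave 307 to 1763 genes called at 4 weeks and 20 to 707 differences between ages. Other settings kept each count within 1.5 times, with 549 calls (43.7% higher, against 58.8%) after quantile normalization and 382 (45.0% higher) after median scaling. With the mean over probe sets Tk1 was at -0.0076 and Myh7 at 0.51, against their opposite signs above. Of 145 named called genes, quantile normalization kept 128 called, a pseudocount of 1 143 and of 64 145, no filter 138, the 8 arrays alone 124 and the array set block 145, and 45 lost the call without some array. A replicate block over samples 1 to 3 of each group called 521 genes, against 172 on the same 6 arrays without it, but the numbers share no stated source, and same-numbered arrays correlated at 0.83, -0.55 and 0.58. Of 87 called genes with several probe sets at least as bright on average as the dimmest tested gene, 11 had one of opposite sign. Dimmer probe sets, such as the second one of Tk1, were not counted. Without the filter on dim genes 663 genes were called, 505 of them among the 554.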
